A study of Mus musculus with 18 samples.

Results

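Branched-chain amino acid breakdown was followed here through 10 genes: Bcat1, Bcat2, Bckdha, Bckdhb, Dbt, Bckdk, Ivd, Mccc1, Mccc2 and Hibch. A probe belonged to the set when its gene symbol in the platform's probe annotation was one of these names. All 10 genes had a probe, and together they had 16 of the 45281 probes on the array, out of 19057 genes. Dbt had 3 probes, Bcat1, Bcat2, Bckdk and Ivd had 2 each, and the other genes had 1.

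The RNA came from C2C12 myotubes, multinucleate muscle-like cells formed when myoblasts of a single mouse cell line fuse in low serum, and it was hybridised to Illumina mouse whole-genome bead arrays. Every group was kept in DMEM with 2% horse serum. All groups received ethanol, the vehicle, at 0.01% of the medium volume. The Dex groups received 1 uM dexamethasone (Dex, a synthetic agonist of the glucocorticoid receptor) in it, and the control groups received ethanol alone. The groups held 4 ethanol and 4 Dex arrays at 6 h, and 5 ethanol and 5 Dex arrays at 24 h. No label states that the arrays of a group came from separate cultures, so each p-value measures the spread between these arrays only, and that spread may be technical. The design text speaks of triplicates, and all numbered samples were used.

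The carbon skeletons of leucine, isoleucine and valine are broken down in mitochondria, and skeletal muscle is a main site of the first step. An aminotransferase moves the amino group to 2-oxoglutarate, with BCAT1 in the cytosol and BCAT2 in mitochondria. The resulting keto acids are then decarboxylated by the branched-chain keto acid dehydrogenase complex (BCKDH), a step that commits the carbon to oxidation. The kinase BCKDK phosphorylates the complex and switches it off, and the phosphatase PPM1K switches it on again. Later enzymes are specific to an amino acid, such as IVD and methylcrotonyl-CoA carboxylase for leucine and HIBCH for valine.

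Promoter windows are shown for the aminotransferases, whose brighter probes moved in opposite directions after 24 h, and for the kinase gene, since the series concerns targets of the glucocorticoid receptor. Each window holds the 250 bases upstream of a RefSeq start site in build GRCm38.p6, written 5′ to 3′ on the gene's strand. Capitals mark the hexamer AGAACA, a core sequence that the receptor binds, on either strand, and a window without capitals holds none.
Bcat1, chr6:145048813-145049062, minus strand: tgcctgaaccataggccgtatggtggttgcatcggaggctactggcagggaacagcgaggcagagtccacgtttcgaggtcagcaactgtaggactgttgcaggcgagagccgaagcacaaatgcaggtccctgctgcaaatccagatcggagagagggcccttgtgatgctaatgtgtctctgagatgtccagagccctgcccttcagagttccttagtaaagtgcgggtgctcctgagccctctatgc
Bcat1, chr6:145076158-145076407, minus strand: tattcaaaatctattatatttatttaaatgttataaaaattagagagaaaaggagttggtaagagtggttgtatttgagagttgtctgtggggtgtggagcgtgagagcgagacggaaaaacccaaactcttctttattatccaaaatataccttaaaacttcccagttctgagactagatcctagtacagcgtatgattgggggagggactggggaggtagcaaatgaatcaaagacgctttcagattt
Bcat2, chr7:45569903-45570152, plus strand: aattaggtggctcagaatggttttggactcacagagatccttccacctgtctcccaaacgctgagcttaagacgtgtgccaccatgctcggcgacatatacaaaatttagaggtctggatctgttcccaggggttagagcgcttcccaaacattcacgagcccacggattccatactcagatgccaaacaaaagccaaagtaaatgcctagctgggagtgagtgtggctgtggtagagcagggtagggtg
Bcat2, chr7:45571029-45571278, plus strand: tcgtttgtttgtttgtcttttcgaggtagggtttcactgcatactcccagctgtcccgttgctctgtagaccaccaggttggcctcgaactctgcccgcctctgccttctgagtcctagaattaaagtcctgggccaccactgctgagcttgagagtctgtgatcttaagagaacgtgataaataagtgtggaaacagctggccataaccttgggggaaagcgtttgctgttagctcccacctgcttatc
Bckdk, chr7:127903823-127904072, plus strand: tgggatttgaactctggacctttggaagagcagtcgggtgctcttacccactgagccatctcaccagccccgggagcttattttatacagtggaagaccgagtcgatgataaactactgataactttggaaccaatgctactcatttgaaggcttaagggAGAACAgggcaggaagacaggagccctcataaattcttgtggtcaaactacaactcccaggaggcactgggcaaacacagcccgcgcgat

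The table used held windows for 9 of the 10 genes, 12 windows in all, with 2 start sites each for Bcat1, Bcat2 and Bckdhb. None of the 12 windows held the full palindromic receptor element, AGAACA and TGTTCT with any 3 bases between them, which occurred in 0.00913% of all 32851 windows of this length. The hexamer AGAACA or its reverse complement TGTTCT, each also part of that element, occurred in 2 of the 12, at 90 bases upstream of the Bckdk start and 238 bases upstream of the first Bckdhb start, and in 16.1% of all windows. The ATF4 composite element TGATGNAA occurred in none of the 12 and in 3.45% of all windows, and the E-box CACGTG occurred in 1, that of Mccc2, and in 6.02% of all windows. These last 2 motifs were chosen after the values were seen. The matches describe letters in these windows only.

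The arrays had medians of 99.8 to 100.4 at 6 h and of 85.2 to 86.8 at 24 h, so levels were compared within a time only. Detection p-values were not used here, so no probe is known to exceed the background. The fold change of a dim probe is therefore understated by any background left in its value. Over all 18 arrays, 11 of the 16 probes lay above the median level and 5 did not (Bcat1 ILMN_1227327, Bcat2 ILMN_2564659, Dbt ILMN_1242012, Ivd ILMN_1213518 and Hibch). The glucocorticoid-induced genes Fkbp5, Tsc22d3 and Per1 were higher with Dex at both times, Fkbp5 by 3.93 and 3.40 on the log2 scale. All 7 measured myotube markers were above the 75th percentile of intensities in every group, while none of 4 adipocyte markers exceeded the array median in any group. Of 2 myoblast or satellite cell markers, Myf5 exceeded it in the Dex group at 6 h only (log2 fold change 0.33), and of 3 measured osteoblast markers 1 or 2 exceeded it in each group. At 24 h Myog and Myod1 fell by 0.32 and 0.27 and Ckm rose by 0.30. The summed intensity of the myotube markers ranged from 93976 to 101042 with ethanol and from 90074 to 96251 with Dex, and the part of this in the results below was not tested.

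At 24 h Dex separated the brighter probes of the 2 aminotransferase genes. With 1 of 2 probes each, Bcat2, the mitochondrial form and the main one in muscle, rose 1.45-fold, and Bcat1, the cytosolic form, fell to 0.666 of the ethanol level. Their dimmer probes were not called, and the Bcat1 call was lost without both arrays numbered 1. Among the genes of the dehydrogenase complex, Bckdha rose 1.17-fold while 1 of the 2 probes of its inhibitory kinase Bckdk fell to 0.885 of the ethanol level, and Mccc1 of leucine breakdown fell to 0.863. In all, 5 of the 16 probes were called at 24 h (limma, Benjamini-Hochberg adjusted p under 0.05 over all 45281 probes), 2 higher and 3 lower. Over all probes 12.6% were called, 6.43% higher and 6.22% lower. None of the 16 was called at 6 h, against 6.26% of all probes, although 6 had an unadjusted limma p under 0.05, against 19.4% of all probes. At 24 h 6 had an unadjusted limma p under 0.05, against 26.8% of all probes. The other 11 probes at 24 h had log2 fold changes from -0.16 to 0.11.

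In ethanol arrays at 24 h, Bcat2 (probe ILMN_2794608) gave intensities of 529, 462, 437, 383 and 415, here and below in replicate order. In Dex arrays it gave 518, 689, 581, 743 and 701. Of the Dex arrays, 4 exceeded every ethanol array, and the groups overlapped only through Dex replicate 1, which lay below ethanol replicate 1. The log2 fold change was 0.53 (SE 0.09, n = 5 each, limma adjusted p = 0.000127). This probe was called higher under all 30 alternative settings, with log2 fold changes from 0.29 for the mean of the gene's probes to 0.67.

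At 6 h the same Bcat2 probe gave 721, 685, 652 and 629 with ethanol and 726, 805, 747 and 769.9 with Dex. The groups did not overlap, with every Dex array higher, but the log2 fold change of 0.18 (SE 0.10, n = 4 each) was not called (limma adjusted p = 0.305). The change in the Dex effect from 6 h to 24 h was 0.35 on the log2 scale (95% interval 0.09 to 0.62, limma adjusted p = 0.127). That change was called without Dex replicate 1 of 24 h (0.43, limma adjusted p = 0.0422) and without both arrays numbered 1 at 24 h (0.49, limma adjusted p = 0.0136). The mean of the gene's probes, which mixes in the dim probe described next, had a called change of 0.32 (limma adjusted p = 0.0346). That mean had a log2 fold change of -0.03 at 6 h.

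The second Bcat2 probe, ILMN_2564659, is dim, at mean intensities of 102.7 with ethanol and 86.4 with Dex at 6 h, the former close to the array median. At 6 h it gave 93.5, 101.2, 112.5 and 103.5 with ethanol and 92.9, 80.3, 85.9 and 86.5 with Dex, so every Dex array was lower. Its log2 fold change of -0.25 (limma adjusted p = 0.0782, SE 0.08) ran against that of the bright probe. It was called lower without ethanol replicate 1 of 6 h and, since the 4 groups were fitted together, also without Dex replicate 4 or Dex replicate 5 of 24 h. At 24 h it had a log2 fold change of 0.05 (limma adjusted p = 0.723, SE 0.07). Its effects at the 2 times differed by 0.30 (SE 0.11, limma adjusted p = 0.138), mostly through the lower values at 6 h. This difference was called without Dex replicate 5 of 24 h. Bcat2 was thus called at 24 h with 1 of its 2 probes. The annotation ties this dim probe to another sequence record than the bright probe, so the 2 need not read the same transcript.

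Bcat1 (probe ILMN_3131478) gave 484, 357, 255, 306 and 254 in ethanol arrays at 24 h. In Dex arrays it gave 151, 239, 207, 209.5 and 286.5. The highest ethanol array and the lowest Dex array both carried the number 1, and the groups overlapped through Dex replicate 5, which exceeded the lowest ethanol arrays, replicates 3 and 5. This gave a log2 fold change of -0.59 (SE 0.15, n = 5 each, limma adjusted p = 0.00865). Leaving out both arrays numbered 1 gave -0.31 (limma adjusted p = 0.0692), and no single array ended the call when left out. Subtracting each array's lower quartile gave -0.84 (limma adjusted p = 0.0698). The mean of the gene's probes gave -0.34 and was called (limma adjusted p = 0.0134), while of the probes taken singly Bcat1 was called with 1 of 2.

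At 6 h this Bcat1 probe gave 271, 336, 283 and 281 with ethanol and 255, 274, 266 and 316 with Dex. The groups overlapped, and the log2 fold change was -0.08 (95% interval -0.41 to 0.26, limma adjusted p = 0.859). The difference between the effects at the 2 times was -0.51 (SE 0.22, limma adjusted p = 0.197). The dim second probe, ILMN_1227327, had log2 fold changes of -0.07 at 6 h and -0.09 at 24 h (limma adjusted p = 0.692 and 0.410).

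**Figure D1:**
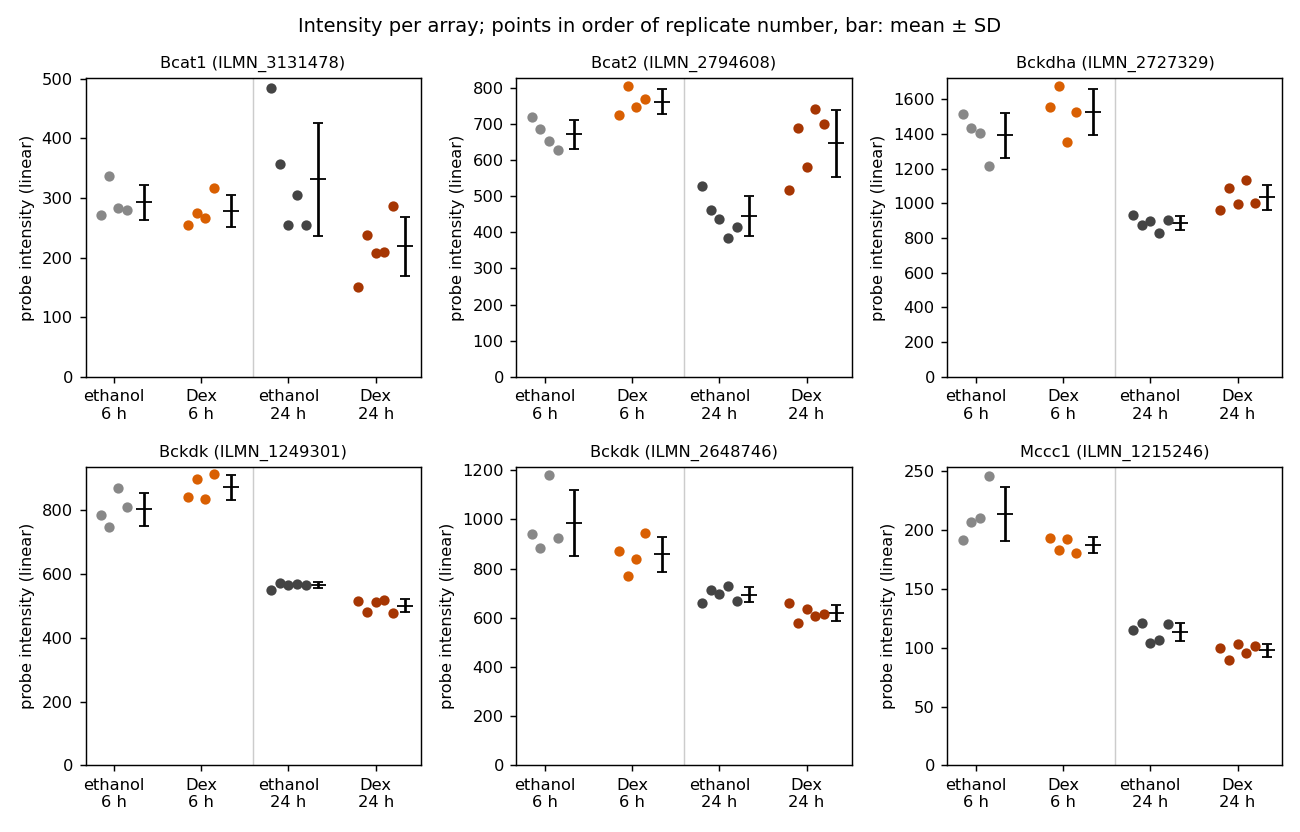
Intensity on a linear axis from 0 for 6 probes, with 1 point per array and the mean ± SD of each group (n = 4 at 6 h, n = 5 at 24 h). At 24 h the Dex arrays of Bcat2 ILMN_2794608 centre on 646 against 445 with ethanol, those of Bcat1 ILMN_3131478 on 219 against 331, and the Dex and ethanol arrays of Bckdha, Bckdk ILMN_1249301 and Mccc1 do not overlap.

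Both changes were also put into 1 value per array, the log2 intensity of the Bcat2 probe minus that of the Bcat1 probe. Its shift between groups is the sum of the 2 changes already given, so it is no separate support for either. Probes differ in brightness, so only the shift of this difference between groups can be read. At 24 h its mean was 0.46 ± 0.27 with ethanol and 1.58 ± 0.22 with Dex (SD, n = 5 each), a shift of 1.12. Every Dex array exceeded every ethanol array, and the exact two-sided permutation p of 0.00794 was the smallest that 252 arrangements can give (adjusted p = 0.0317 over 8 such tests). With the mean of each gene's probes the shift was 0.63 (exact permutation, adjusted p = 0.0317). The permutations take the 10 arrays as exchangeable, whereas same-numbered arrays deviated in opposite directions at 24 h, with correlations of -0.97 to -0.18, and 3 of the 8 directions of spread were nearly empty. The permutation p-values at 24 h therefore share the limit of the limma fit.

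At 6 h the shift was 0.26 (n = 4 each), with an exact permutation p of 0.0571 (adjusted p = 0.114), where the smallest possible was 0.0286. Same-numbered arrays deviated together at that time, so the numbers were taken as pairs, though no label states a pairing. Within these 4 pairs the value was higher with Dex in all 4, by 0.10 to 0.53. A paired exact sign-flip test over 4 pairs cannot go below 0.125, the p it gave here. With the mean of each gene's probes the shift at 6 h was 0.04.

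Of the BCKDH genes, Bckdha encodes the alpha subunit of the decarboxylase, the part of the complex that the kinase phosphorylates. It gave 931, 874, 901, 828 and 903 in ethanol arrays at 24 h. In Dex arrays it gave 963, 1087, 995, 1132 and 1000.1, all above the ethanol arrays. The resulting log2 fold change was 0.22 (SE 0.07, n = 5 each, limma adjusted p = 0.0262). This call was lost without ethanol replicate 2 or 4 or Dex replicate 2 or 4 of 24 h (limma adjusted p from 0.0578 to 0.0789).

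At 6 h Bckdha gave 1516, 1436, 1405 and 1214 with ethanol and 1554, 1679, 1354 and 1525.5 with Dex, and the groups overlapped. Its log2 fold change was 0.13 (95% interval -0.02 to 0.28, limma adjusted p = 0.327), and the effects at the 2 times differed by 0.09 (SE 0.10, limma adjusted p = 0.681).

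Bckdhb encodes the beta subunit of the same decarboxylase. Its only probe lay near the array median, at 88.9 ± 6.31 with ethanol and 96.1 ± 7.38 with Dex (SD, n = 5 each) at 24 h, and 99.4 ± 4.79 and 114 ± 11.9 (SD, n = 4 each) at 6 h. The log2 fold changes were 0.11 (95% interval -0.03 to 0.25, limma adjusted p = 0.303) and 0.19 (95% interval 0.04 to 0.35, limma adjusted p = 0.133), and the groups overlapped at both times. The Bckdha minus Bckdhb difference shifted by 0.11 at 24 h (exact permutation p = 0.0873, adjusted p = 0.140) and by -0.06 at 6 h (exact permutation p = 0.486).

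Dbt encodes the transacylase core of the complex. Its brightest probe, ILMN_2820948, gave 325, 390.2, 362 and 358 with ethanol at 6 h and 459, 399, 398.5 and 429.9 with Dex, so every Dex array was higher. The log2 fold change of 0.23 (SE 0.08, n = 4 each) had the smallest adjusted p of the 16 probes at 6 h (limma adjusted p = 0.0693), and it was called without ethanol replicate 2 (0.27, limma adjusted p = 0.0416). At 24 h the groups overlapped, with a log2 fold change of 0.09 (limma adjusted p = 0.429, SE 0.07). The dimmer probes ILMN_1242012 and ILMN_2662920 had 0.07 and -0.13 at 6 h and 0.02 and 0.10 at 24 h, none of them called, so the 3 probes differed in sign at 6 h.

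Bckdk encodes the kinase that inactivates the complex. Its probe ILMN_1249301 gave 551, 574, 566, 570.4 and 566 in ethanol arrays at 24 h. In Dex arrays it gave 516, 480.3, 513, 518 and 477, all below the ethanol arrays. On the log2 scale the change was -0.18 (SE 0.05, n = 5 each, limma adjusted p = 0.0209). The call was lost without ethanol replicate 2, Dex replicate 2 or Dex replicate 5 of 24 h (limma adjusted p from 0.0524 to 0.0571) and with a spread that follows intensity (0.0538).

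At 6 h this probe stood the other way round, at 785, 746, 871.5 and 810.5 with ethanol and 843, 897, 835 and 914 with Dex. The groups overlapped, and the log2 fold change of 0.12 (SE 0.06, n = 4 each) was not called (limma adjusted p = 0.234). The difference between the 2 effects, -0.30 (SE 0.07, limma adjusted p = 0.0269), was the only 1 of the 16 called, against 3.7% of all probes (1.7% called lower), and 6 of the 16 had an unadjusted limma p under 0.05, against 19.1% of all probes. It was lost without ethanol replicate 2 or Dex replicate 4 of 6 h or ethanol replicate 2 of 24 h (limma adjusted p from 0.0507 to 0.0541).

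The second Bckdk probe, ILMN_2648746, was the brighter one and did not repeat this turn. At 24 h it gave 659, 714, 695.5, 731 and 667.5 with ethanol and 660.3, 578, 637, 607.5 and 614.5 with Dex, where Dex replicate 1 exceeded the lowest ethanol array, also replicate 1. The log2 fold change was -0.16 (SE 0.07, limma adjusted p = 0.124), close in size to that of the other probe. At 6 h it was -0.19 (SE 0.08, limma adjusted p = 0.149), opposite in sign to the other probe, and its effects at the 2 times differed by 0.03 (SE 0.10, limma adjusted p = 0.908). The mean of both probes was called lower at 24 h (-0.17, limma adjusted p = 0.0304) and gave a difference between times of -0.13 (limma adjusted p = 0.349).

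Kinase and substrate were likewise combined into 1 value per array, with the brighter Bckdk probe, and again the shift only combines the changes of both probes. At 24 h the log2 difference Bckdk minus Bckdha went from -0.36 ± 0.12 with ethanol to -0.74 ± 0.16 with Dex (SD, n = 5 each), a shift of -0.38. The exact two-sided permutation p was 0.00794, the smallest possible (adjusted p = 0.0317 over 8 tests). At 6 h the shift was -0.33 (n = 4 each, exact permutation p = 0.114, adjusted p = 0.152). It was negative in all 4 pairs of equal number, from -0.44 to -0.15, where the exact paired p was again the smallest possible, 0.125. With the mean of each gene's probes the shift at 6 h was -0.17.

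**Figure D2:**
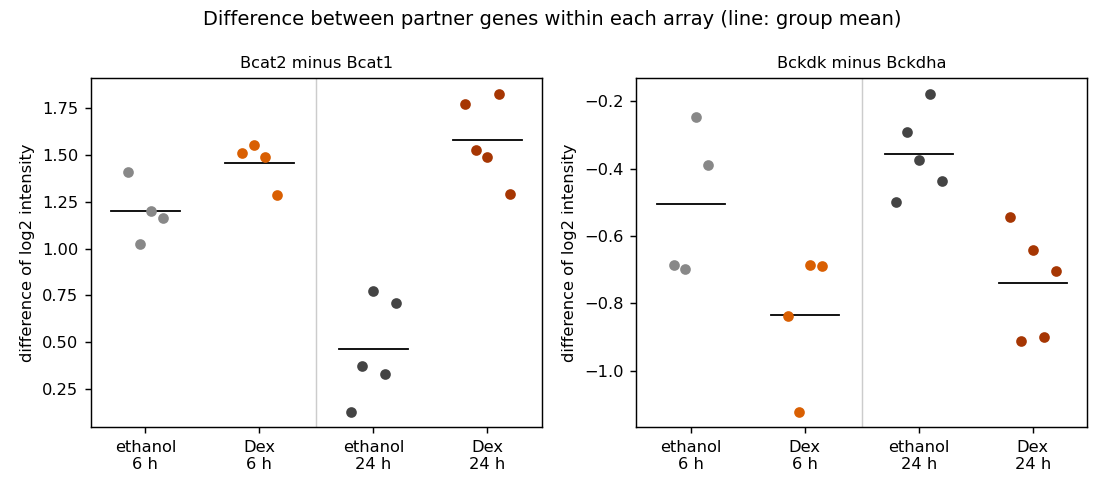
Log2 intensity of Bcat2 minus Bcat1 and of Bckdk minus Bckdha in each array (points), with the group mean as a line, for ethanol and Dex at 6 h (n = 4 each) and 24 h (n = 5 each). At 24 h the mean of the first difference moves from 0.46 to 1.58 and that of the second from -0.36 to -0.74, while the shifts at 6 h are 0.26 and -0.33.

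Downstream of the complex, Ivd encodes isovaleryl-CoA dehydrogenase, the next enzyme of leucine breakdown. Its bright probe ILMN_2728379 gave means of 740 ± 33.5 with ethanol and 700.3 ± 32.7 with Dex (SD, n = 5 each) at 24 h, and 1980 ± 80.3 and 2106 ± 79.3 (SD, n = 4 each) at 6 h. The groups overlapped at both times, with log2 fold changes of -0.08 (95% interval -0.18 to 0.02, limma adjusted p = 0.316) and 0.09 (95% interval -0.02 to 0.20, limma adjusted p = 0.403). Its dim probe, also tied to another sequence record than the bright one, had -0.06 at 24 h and -0.13 at 6 h, and neither was called.

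Mccc1 and Mccc2 encode the alpha and beta subunits of methylcrotonyl-CoA carboxylase, the biotin enzyme that follows IVD. Mccc1 gave 115.0, 121.4, 104.5, 106.7 and 120.2 in ethanol arrays at 24 h. In Dex arrays it gave 99.8, 89.6, 103.6, 95.6 and 101.2, all below the ethanol arrays, though the highest Dex array lay just under the lowest ethanol array. This gave a log2 fold change of -0.21 (SE 0.06, n = 5 each, limma adjusted p = 0.0265). The call was lost without ethanol replicate 1, 2 or 5 or Dex replicate 2 or 4 of 24 h (limma adjusted p from 0.0545 to 0.0807) and without both arrays numbered 1 (0.0695). With each array's lower quartile subtracted, which enlarges the folds of dim probes, it was called at -0.74.

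At 6 h Mccc1 gave 191, 207, 210.3 and 246 with ethanol and 193, 183, 193 and 181 with Dex. The groups overlapped, and the log2 fold change of -0.18 (limma adjusted p = 0.134, SE 0.07) differed from that at 24 h by -0.03 (SE 0.09, limma adjusted p = 0.904). Mccc2 gave 118 ± 7.58 with ethanol and 111 ± 6.4 with Dex at 24 h (SD, n = 5 each). This is a log2 change of -0.09 (95% interval -0.24 to 0.07, limma adjusted p = 0.505), and -0.08 at 6 h (limma adjusted p = 0.683). The Mccc1 minus Mccc2 difference shifted by -0.13 at 24 h (exact permutation p = 0.0556, adjusted p = 0.114), so the subunit genes were not shown to respond differently.

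Hibch encodes the hydrolase of valine breakdown that releases hydroxyisobutyrate from its CoA ester. Its dim probe gave 82.3 ± 3.34 with ethanol and 79.8 ± 6.14 with Dex at 24 h (SD, n = 5 each). This is a log2 change of -0.05 (95% interval -0.16 to 0.06, limma adjusted p = 0.627). At 6 h it had -0.11 (95% interval -0.23 to 0.02, limma adjusted p = 0.338).

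Across the 16 probes the Dex effects at 24 h had no common direction. The sign was positive for 7 and negative for 9, with a median of -0.05 beside -0.00202 over all probes. At 6 h the numbers were also 7 and 9, with a median of -0.07 beside -0.000364. Non-overlapping groups were found for 3 of the 16 at each time, against 9.24% of all probes at 6 h and 13.7% at 24 h: the bright and the dim Bcat2 probe and Dbt ILMN_2820948 at 6 h, and Bckdha, Bckdk ILMN_1249301 and Mccc1 at 24 h. All 5 calls at 24 h fell among the 11 probes above the median level. A separate fit of only the probes above that level called 20.9% of them, and again 5 of these 11. With the brightest probe of each gene 4 of 10 genes were called at 24 h, against 15.8% of all genes.

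The 24 h count depended on how spread was estimated. The deviations of the 10 arrays from their group means spanned fewer directions than the 8 possible, with 3 of them nearly empty, and with those directions as covariates 2 of the 16 probes were called (5726 of all probes fell to 2842). Bcat1 and Bcat2 kept their calls there, while Bckdha (limma adjusted p = 0.0925), Bckdk ILMN_1249301 (0.113) and Mccc1 (0.0972) did not, nor did the difference between times for Bckdk (0.169). Left out singly, ethanol replicate 2 or Dex replicate 2 of 24 h also reduced the count to 2, and Dex replicate 4 reduced it to 3. The share of all probes called fell as well, from 12.6% to 9.27%, 10.3% and 10.5% in these 3 fits.

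**Figure D3:**
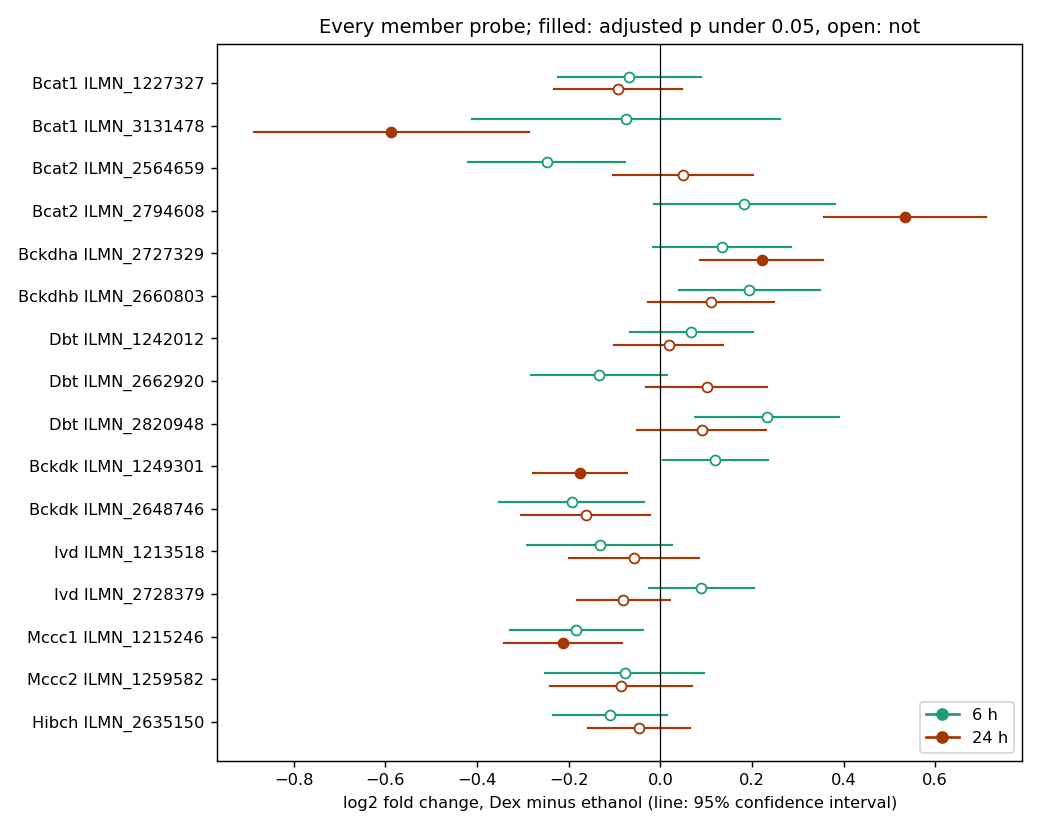
Log2 fold change of Dex over ethanol with its 95% interval for each of the 16 probes, at 6 h and at 24 h, with filled points for an adjusted p under 0.05. No point is filled at 6 h, and at 24 h the filled points run from -0.59 for Bcat1 ILMN_3131478 to 0.53 for Bcat2 ILMN_2794608.

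**Figure D4:**
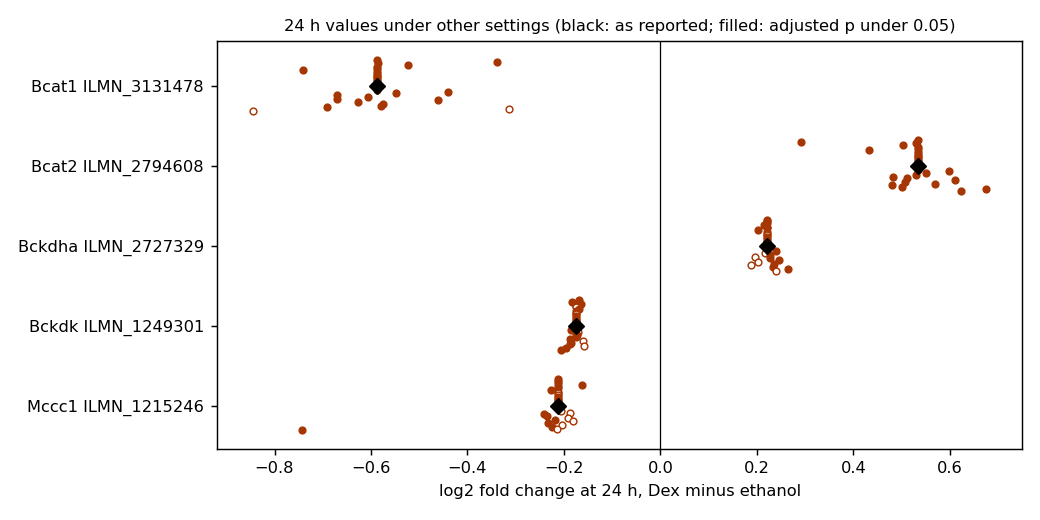
Log2 fold change at 24 h of the 5 called probes under the other settings of the analysis (30, or 29 for Bckdk ILMN_1249301), with the reported value as a black diamond. Values keep their sign throughout, and they range from 0.29 to 0.67 for Bcat2 and from -0.84 to -0.31 for Bcat1.

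Most other genes of the pathway did not pass the test. Of 20 further genes of branched-chain breakdown, 19 had a probe, and taking the brightest probe of each, 2 were called higher and 1 lower at 24 h, with a median log2 fold change of 0.00387 beside -6.27e-05 over all genes. Over all genes 8.05% were called higher and 7.73% lower. Oxct1, which activates ketone bodies for oxidation, went from 2306 ± 211 to 2968 ± 288 (SD, n = 5 each), or 0.36 on the log2 scale (SE 0.07, limma adjusted p = 0.000682). Acaa2, a mitochondrial thiolase, went from 1353 ± 83.1 to 1033 ± 61.3, or -0.39 (SE 0.07, limma adjusted p = 0.000358), and -0.24 with the mean of its probes, also called. Auh, which hydrates methylglutaconyl-CoA in leucine breakdown after the carboxylase, rose by 0.21 (limma adjusted p = 0.0214, and 0.0918 with the nearly empty directions as covariates). The mean of its probes gave 0.10, not called, and it also lost its call without ethanol replicate 2 or 3 or Dex replicate 2 or 3 of 24 h.

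At 6 h, 1 of the 19 was called, and it was lower, against 8.35% of all genes (4.31% higher and 4.04% lower). This was Dld, the dehydrogenase subunit that BCKDH shares with its sister complexes, at -0.29 (SE 0.08, limma adjusted p = 0.0225, and 0.0582 with the replicate number as a block). It went from 754 ± 106 to 611 ± 25.4 (SD, n = 4 each). The mean of its probes gave -0.10, not called, and leaving out ethanol replicate 3 or 4 or Dex replicate 3 of 6 h ended the call too. At 24 h Dld had -0.13 (limma adjusted p = 0.223). The phosphatase gene Ppm1k, which opposes Bckdk, had 0.06 at both times (limma adjusted p = 0.750 and 0.666), at levels of 279 ± 27.8 with ethanol at 6 h and 222 ± 13.9 at 24 h.

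Among transporters of branched-chain amino acids, 7 of 8 listed genes had a probe, and Slc7a5 had none. Of the 7, 1 was called higher and 1 lower at 24 h, against 8.05% and 7.73% of all genes. At 6 h 1 was called higher and none lower, against 4.31% and 4.04%. Slc43a1, which encodes the facilitated transporter LAT3 for large neutral amino acids, rose at both times. It went from 143 ± 9.93 to 219 ± 16.3 (SD, n = 4 each) at 6 h, or 0.62 on the log2 scale (SE 0.06, limma adjusted p = 2.35e-07), and from 102 ± 3.98 to 196 ± 10 (SD, n = 5 each) at 24 h, or 0.95 (SE 0.06, limma adjusted p = 1.12e-11). Both of its probes were called higher at each time. Slc3a2, the heavy chain shared by several such transporters, went from 131 ± 17.2 to 104 ± 7.88 at 24 h, or -0.32 (SE 0.08, limma adjusted p = 0.00527). Without both arrays numbered 1 it had -0.21 and was not called (limma adjusted p = 0.0557). The brightest probes of the other 5 measured transporters were not called at either time.

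The pyruvate and oxoglutarate dehydrogenase complexes are built like BCKDH, and their 12 listed genes gave 3 called higher and 2 lower at 24 h, against 8.05% and 7.73% of all genes. At 6 h they gave 2 higher and none lower, against 4.31% and 4.04%. Pdk4, the pyruvate dehydrogenase kinase and a relative of Bckdk, rose by 1.78 at 6 h and by 2.29 at 24 h (SE 0.17 and 0.15). The phosphatase gene Pdp1 rose by 0.75 and 0.57 at these times, and by 0.36 at 24 h with the mean of its probes. The core subunit gene Dlat, the counterpart of Dbt, went from 322 ± 18.5 to 274 ± 5.29 at 24 h (SD, n = 5 each), or -0.23 on the log2 scale (limma adjusted p = 0.0055). At 6 h all Dex arrays of Dlat were above the ethanol arrays, with a log2 fold change of 0.18 that was not called (limma adjusted p = 0.0743, SE 0.06). Pdp2 and Pdhb had 0.18 and -0.21 at 24 h (limma adjusted p = 0.0203 and 0.0312), and neither was called with the nearly empty directions as covariates (0.112 and 0.108). Pdhb was also not called with the mean of its probes (-0.06) or without ethanol replicate 1 or 5 or Dex replicate 1 or 4 of 24 h, and Pdp2 was not called without Dex replicate 5.

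Among the listed genes with a called difference between times past 0.3 on the log2 scale was Dlat, whose effect at 24 h minus that at 6 h was -0.41 (SE 0.08, limma adjusted p = 0.00517). Over all genes 4.69% had a called difference, 2.35% higher and 2.35% lower. With the nearly empty directions as covariates the Dlat difference was not called (limma adjusted p = 0.0526). Oxct1, Slc43a1 and Ogdh, which encodes the first subunit of the oxoglutarate complex, had differences of 0.40, 0.32 and 0.34 (limma adjusted p = 0.0288, 0.0319 and 0.0429). None of these 3 was called with those covariates (limma adjusted p = 0.123, 0.160 and 0.171). With single arrays left out they were called in 13, 9 and 6 of 18 fits, and the mean of the Slc43a1 probes gave 0.14, not called. Ogdh itself was called at neither time, at -0.15 at 6 h and 0.19 at 24 h. Fkbp5 had a difference of -0.53 (limma adjusted p = 0.00337), and -0.26, not called, with each array's lower quartile subtracted.

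Of 8 listed regulators, 2 were called higher, 1 lower and 5 not at 24 h, against 8.05% higher and 7.73% lower of all genes. At 6 h 1 was called higher and none lower, against 4.31% and 4.04%. Klf15, a glucocorticoid-induced factor known to drive Bcat2, read 105 ± 2.66 with ethanol at 6 h and 101 ± 7.32 at 24 h, near the array median. It had log2 fold changes of 0.05 and 0.04 (limma adjusted p = 0.750 and 0.731). The receptor gene Nr3c1 had -0.02 and -0.14 (limma adjusted p = 0.912 and 0.170), the latter called without both arrays numbered 1 (-0.21, limma adjusted p = 0.0490). At 24 h the coactivator gene Ppargc1a rose by 0.33 (limma adjusted p = 0.00284; 0.18 and still called with the mean of its 2 probes, of which 1 was called) and Foxo3, a transcription factor of muscle atrophy, by 0.32 (limma adjusted p = 0.00162), while Atf4, the amino acid response factor, fell by 0.41 (limma adjusted p = 0.000794). At 6 h Foxo3 was the 1 regulator called, at 0.26 (limma adjusted p = 0.0304, and 0.0513 with the replicate number as a block), and that call was lost without ethanol replicate 1 or 2 or Dex replicate 2, 3 or 4 of 6 h. The mean of its probes gave 0.13 at 6 h, not called. With each array's lower quartile subtracted, the 24 h values of the dim genes grew to 1.03 for Foxo3, 0.86 for Ppargc1a, 2.22 for Slc43a1 and -0.96 for Slc3a2.

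**Figure D5:**
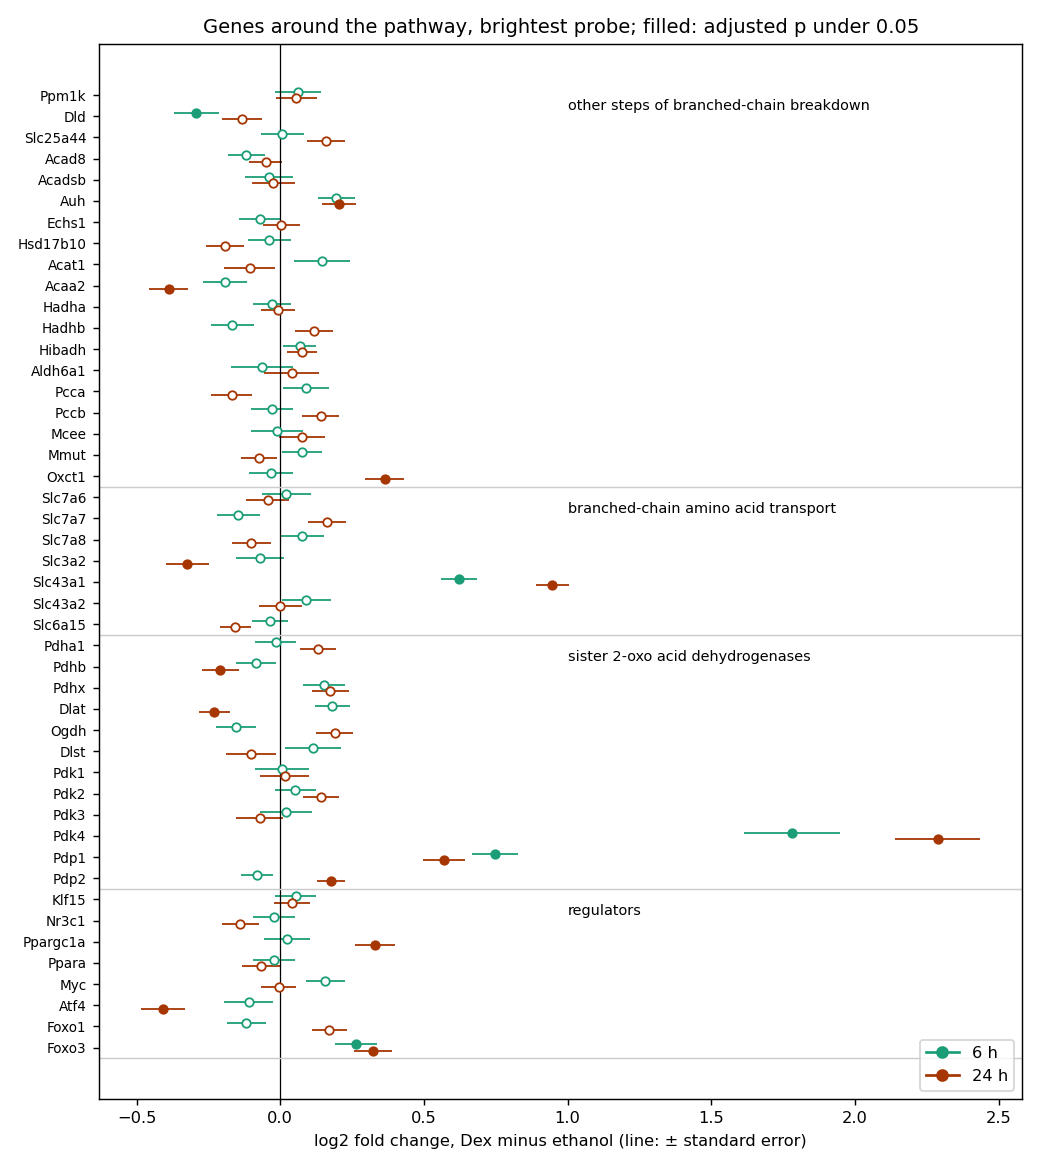
Log2 fold change of Dex over ethanol ± SE for the brightest probe of each listed gene of the pathway, its transport, the sister complexes and the regulators, at 6 h and at 24 h. Slc43a1 stands at 0.62 and 0.95 and Pdk4 at 1.78 and 2.29, while Ppm1k and Klf15 lie between 0.04 and 0.06 at both times.

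The genes whose pattern was most like that of the Bcat2 probe ILMN_2794608 were found by Pearson correlation of log2 values over the 18 arrays, after subtracting the mean of each time. They were Hsd11b1 (r = 0.939), Abhd14b (0.930), Snhg16 (0.928), Olfr494 (0.927) and Ctrb1 (0.926). These arrays share their groups, so the correlations describe the pattern and carry no test. Hsd11b1, which encodes an enzyme that regenerates active glucocorticoid, had log2 fold changes of 0.56 at 6 h and 1.27 at 24 h, and Ctrb1 had 0.17 and 1.08. Abhd14b, Snhg16 and Olfr494 had 0.13, 0.38 and 0.07 at 6 h, and 0.27, 0.70 and 0.13 at 24 h.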

How the data were processed

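The deposited values are linear probe intensities that the authors made with lumi, per the submitters' processing notes. For its version, background correction and normalization method, no detail was given in the sources used here. The log2 of each intensity was taken with a pseudocount of 0, and no probe was filtered out. A linear model with 4 group means (limma 3.58.1, functions lmFit and eBayes, in R 4.3.3) was fitted to all 45281 probes of the 18 arrays, with Benjamini-Hochberg adjustment over all probes and a threshold of 0.05. The difference between times is the interaction of that model. The alternatives were the brightest or the mean probe of a gene, quantile normalization, a pseudocount of 32, a filter on dim probes, an intensity trend, array weights, separate fits, a replicate block, the nearly empty directions of spread as covariates, arrays left out, and the lower quartile subtracted with a floor of 16. The model was tested on simulated data with noise drawn independently for each array. Such data lack the nearly empty directions of spread, so that test cannot show how the model fares with them. Of the probes, 34885 had 1 gene symbol, 18 several and 10378 none. Partner genes were compared by exact permutation tests and, at 6 h, by an exact paired test added after seeing the data. Promoter sequences come from RefSeq, build GRCm38.p6.

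Every probe of the 10 genes is described. Listed genes are named where called with an absolute log2 fold change of at least 0.3, and Klf15, Ppm1k, Dld, Nr3c1, Fkbp5 and Tsc22d3 always. Slc7a5 is named because it had no probe. Per1, Auh, Foxo3 at 6 h, Pdp2, Pdhb, Dlat at 24 h and the markers Myog, Myod1, Myf5 and Ckm were named where the text gives their group's count, some of them after their values were seen. The members, lists and tests were chosen with earlier results of these data known.

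Same-numbered arrays deviated together at 6 h, with correlations of 0.48, 0.46, 0.16 and 0.25 over 9120 probes with a mean log2 above 8, so the numbers were taken as pairs there. At 24 h the correlations lay between -0.97 and -0.18, and the numbers were not taken as pairs. The main fit holds no term for this opposite dependence. Of the possible directions of spread within groups, over 1126 bright probes, 1 of 6 held 2.51e-05% at 6 h and 3 of 8 held at most 0.00038% each at 24 h, so the model counts more degrees of freedom than the values hold. Within each group no 2 arrays held identical values.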

Additional observations from a re-analysis of the deposited data

Results flagged for a closer look

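The Dex effect on Bckdk probe ILMN_1249301 differed between the times, by -0.30 on the log2 scale for 24 h minus 6 h (limma adjusted p = 0.0269), and it was the 1 of 16 probes for which this test passed. All 5 Dex arrays at 24 h lay below the ethanol arrays, while the groups overlapped at 6 h. The gene's other probe, ILMN_2648746, had a difference of 0.03 (limma adjusted p = 0.908). No array stood apart from its group by Dixon's test in any of 64 groups of probe values, where chance would give about 3.2.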

How the results depend on the processing

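The count of 5 called probes at 24 h (12.6% of all probes) became 2 with the nearly empty directions as covariates (6.28%) and 2 with the replicate block (8.44%). It became 3 without both arrays numbered 1 (9.66%) and 3 with each array's lower quartile subtracted (7.06%), a setting chosen after seeing the data. The count of 1 for the difference between times became 0 with the brightest probe of each gene (4.94% of all genes called). It was also 0 with an intensity trend (3.43% of all probes), with those covariates (0.819%) and with the replicate block (2%), and 2 without both arrays numbered 1 (2.58%). Leaving out single arrays gave 0 to 1 probes at 6 h, 2 to 5 at 24 h and 0 to 2 for the difference between times. Of all probes, those fits called 4.52% to 6.61%, 9.27% to 13.3% and 2.52% to 4.07%. The replicate block ended the 24 h calls of Bckdha (limma adjusted p = 0.0588), Bckdk ILMN_1249301 (0.102) and Mccc1 (0.0736), and changed no member's call at 6 h. Same-numbered arrays deviated in opposite directions at 24 h (correlations of -0.97 to -0.18), a dependence that the main fit leaves out. With the replicate block, the calls over all probes were 1931 at 6 h, 3821 at 24 h and 904 for the difference between times. Bcat2 was called at 24 h in 30 of 30 settings, Bcat1 in 28, Bckdha in 23, Mccc1 in 22 and Bckdk ILMN_1249301 in 23 of 29, and each kept its sign. These settings are not separate checks. Leaving out an array of 6 h, an intensity trend, separate fits, the covariates and the replicate block keep a 24 h fold change as it was and alter only its estimated spread. The 24 h shifts of Bcat2 minus Bcat1 and Bckdk minus Bckdha kept their calls with mean probes, quantile normalization and the alternative pseudocount. The covariates, the replicate block, arrays left out and the subtracted quartile were not run on these 24 h shifts. Whether their calls hold under the settings that lowered the 24 h count was therefore not tested. No 6 h shift was called. The exact paired test at 6 h gave adjusted p from 0.25 to 0.875. It took the replicate number as a block and was added after seeing the data. Array weights added Bckdk ILMN_2648746 and Ivd ILMN_2728379 at 24 h (limma adjusted p = 0.0326 and 0.0340). Over all probes the 5726 calls at 24 h became 2842 with the covariates, 3196 with the quartile subtracted and 11329 with array weights, the 2836 at 6 h became 1378, 1757 and 1741, and 1431 with each time fitted alone, and the 1675 differences between times became 371 with the covariates and 715 with the quartile subtracted. Beyond the settings themselves, the cause was not tested. The number of arrays limits the precision, and signal over background is not known for any probe.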
